A study of Canis lupus familiaris with 12 samples.

Results

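The comparison pooled all 3 transfectants of the series, Snail, Slug and E47, against their common control on 12 of the 12 arrays. The cells were MDCK, a dog kidney epithelial line, and the control is labelled MDCK-CMV. Each transfectant had samples numbered 1 and 2, and RNA of each sample was hybridised with control RNA on an array titled Cy5 and on an array titled Cy3, with the dyes exchanged. Averaging the pair of arrays of each numbered sample gave 6 replicates, called Snail 1, Snail 2, Slug 1, Slug 2, E47 1 and E47 2. The labels do not give the constructs, the promoter, whether a transfectant was a clone or a pool, or whether samples 1 and 2 were separate cultures; the spread behind each p-value may therefore be technical. The pooled mean weighted the 3 transfectants equally and asks which genes stood at another level in cells with any of these repressors than in the control.

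Epithelial cells hold together through adherens junctions, whose adhesion molecule is E-cadherin (gene CDH1), and through desmosomes, which tie keratin filaments to the membrane. In an epithelial-mesenchymal transition such cells lose junctions and keratins and take up matrix, integrin and cytoskeletal proteins of fibroblast-like cells. Snail and Slug are zinc finger proteins (genes SNAI1 and SNAI2) and E47 is a basic helix-loop-helix product of TCF3; all are known to bind E-box motifs of the CDH1 promoter and to repress the gene.

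The arrays carried log2 ratios for 10654 to 12982 of 13056 probes, and array medians lay between -0.0634 and 0.0594. Probes with 1 gene symbol gave 4325 genes, of which 3537 had a value in all 6 replicates and were tested; the other 788 were not. The labels do not say which channel is the numerator, and the signs did not follow the dyes: as deposited, the 2 arrays titled Cy5 of the same transfectant correlated across probes with r = -0.593 for Snail, -0.455 for Slug and -0.609 for E47. Therefore 5 arrays were multiplied by -1, so that CDH1 lay below the control on every array. Between the 2 arrays of a replicate, turning changed the r across probes for E47 2 alone, from -0.74 to 0.74. Both arrays of Snail 2 and of Slug 1 were turned together, so their r of 0.68 and 0.654 was as deposited. The r was lower for Snail 1 (0.498), Slug 2 (0.309) and E47 1 (0.264), so these replicates average arrays that were less alike. The signs were chosen with the values known, so every direction here is assumed, a low CDH1 is no finding, and with all 3 transfectants turned every higher and lower call exchanges. Where a transfectant as a whole was turned, CDH1 turned with it, so whether a gene lay on the side of CDH1 in a replicate does not depend on the sign given to that transfectant. A pooled rise therefore means a shift to the side opposite to CDH1.

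Pooled over the transfectants, 899 of 3537 genes (25.4%) passed a limma adjusted p of 0.05, 457 higher (12.9%) and 442 lower (12.5%) than the control. The falls were led by SPP1, the secreted phosphoprotein osteopontin (10.2-fold), FXYD3, a regulator of the sodium pump (8.7-fold), RGS2, which switches off G protein signals (8.38-fold), and IL1RN, the interleukin-1 receptor antagonist (6.27-fold). The rises were led by SPARC, a secreted collagen-binding protein (15.3-fold, in 5 of 6 replicates), WNT5A, a Wnt ligand (5.81-fold), SCD5, a fatty acid desaturase (5.37-fold), and COL1A2, which encodes a type I collagen chain (4.61-fold). The control had no replicate of its own on these arrays: the ratio was tested against 0, which leaves out the spread of the control, and a deviation of the control RNA shared by all arrays cannot be told apart from a shift common to the 3 transfectants.

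The 6 replicates lay on 1 side of 0 for 450 of the 899 called genes, with 203 above in 6 of 6 (5.74% of the genes tested) and 247 below in 6 of 6 (6.98%). All 12 arrays lay on 1 side for 185 called genes, 79 above (2.23%) and 106 below (3%). In a further 165 called genes, no more than 4 of the 6 replicates lay on the same side. Called or not, 250 genes lay above 0 in 6 of 6 replicates and 310 below. The turning of arrays to a common sign favours replicates on 1 side, so these counts describe agreement after turning.

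**Figure D1:**
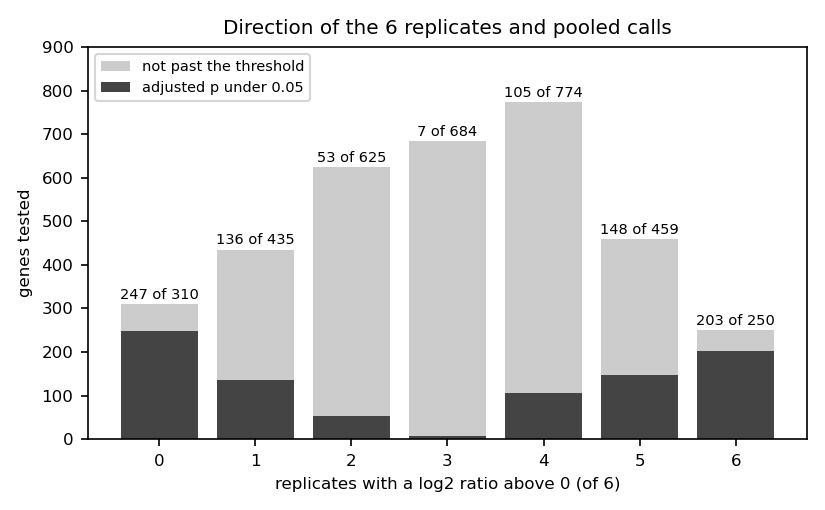
Number of tested genes (vertical axis) by the number of replicates, of 6, with a log2 ratio above 0 (horizontal axis); dark bars are genes past a limma adjusted p of 0.05. Calls made up 247 of 310 genes with no replicate above 0 and 203 of 250 genes with 6 above, against 7 of 684 genes with 3 above.

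Only 12 genes differed at least 2-fold in the same direction in each of the 6 replicates. Of these, 10 were lower, namely SPP1, FXYD3, RGS2, IL1RN, CDH1, SLCO2A1, FGFBP1, NID2, PLSCR1 and ADGRV1, and COL1A2 and SCD5 were higher. At the other end of the list, the weakest call that passed was COX11 at -0.25 (adjusted p = 0.0498) and the first gene that missed was PDPN at -0.36 (adjusted p = 0.0505). The call of COX11 was lost with any replicate but Slug 2 left out (adjusted p between 0.083 and 0.218).

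CDH1 was read by 3 clones. Over the 6 replicates the first clone lay between -3.36 (Slug 1) and -2.26 (E47 1), with a pooled mean of -2.94. The second lay between -4.30 (Slug 2) and -3.20 (Snail 2), with a pooled mean of -3.82. The third clone stood apart, between -0.14 (Slug 1) and 0.31 (E47 1), with a pooled mean of 0.15. The gene value over the clones was -2.20, and its 6 replicates ran from -2.48 to -1.79 with a median of -2.24, the smallest spread for its size among called genes with a mean of at least 1 on the log2 scale; the sign was set by this gene and no test is given for it.

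**Figure D2:**
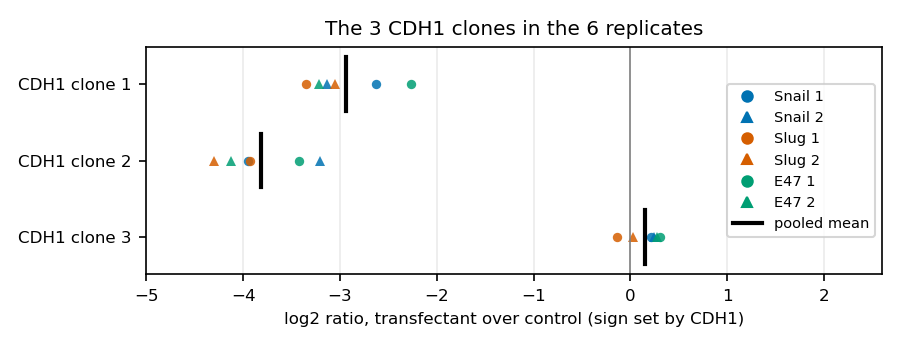
Log2 ratio of transfectant over control (horizontal axis) for the 3 CDH1 clones in the 6 replicates; colour marks the transfectant, circles and triangles samples 1 and 2, and the vertical stroke the pooled mean. Clones 1 and 2 lie below -2 in every replicate and clone 3 lies near 0.

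SNAI1, the gene of Snail, had replicates of 1.04 and 2.37 in Snail, 0.70 and 0.64 in Slug, and 0.19 and 0.15 in E47. It was above 0 in 6 of 6 replicates and highest in both Snail samples. Its pooled mean was 0.85 ± 0.15 (SE, n = 6, adjusted p = 0.00437), and its SD over the 6 replicates was 0.82. Here and below, the SE after ± comes from the spread within transfectants and leaves out the differences between them. With all 6 replicates placed around 1 mean the adjusted p of SNAI1 was 0.0825. TCF3, the gene of E47, was above 0 in 5 of 6 replicates, with 1.12 and 1.11 in Slug, 0.82 and 0.60 in E47, and 0.13 and -0.23 in Snail. Its transfectants differed (adjusted p of the F test between them = 0.0188), the Slug replicates being the highest, and without Slug its pooled value of 0.59 fell to 0.33 (adjusted p = 0.069). No probe is named SNAI2, so the gene of Slug was not analysed here, and whether the SNAI1 and TCF3 probes read the introduced genes is not given in the sources used here.

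Among genes with 12 of 12 arrays on 1 side, the largest pooled falls were those of SPP1, FXYD3, RGS2 and IL1RN. SPP1 ran from -3.85 (Snail 2) to -2.62 (E47 1) with a median of -3.57, and its pooled mean was -3.35 ± 0.16 (SE, n = 6; adjusted p = 8.54e-06). FXYD3 ran from -3.80 (Slug 1) to -2.40 (E47 1) (median -3.11), with a mean of -3.12 ± 0.13. In both genes E47 1 was the replicate nearest to the control and every replicate was below -2. RGS2 ran from -3.79 (E47 2) to -2.13 (Slug 2) with a median of -3.24, and was lower in E47 and Snail than in Slug (F test adjusted p = 0.045). IL1RN ran from -3.42 (Snail 2) to -1.74 (E47 1) (median -2.55), with a mean of -2.65 ± 0.15.

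Of the membrane proteins, SLCO2A1, the prostaglandin transporter, ran from -2.78 (E47 2) to -1.47 (E47 1) with a mean of -1.99 ± 0.19. The receptor phosphatase PTPRZ1 was uneven, with -0.91 and -3.39 in Snail, -2.72 and -3.25 in Slug, and -0.74 and -2.02 in E47, a mean of -2.17 ± 0.29. ADGRV1, a very large adhesion receptor, was among the most even: its replicates ran from -1.81 to -1.17 and its mean was -1.55 ± 0.10. PLSCR1, a phospholipid scramblase, was, after CDH1, the most even of the called genes with a mean of at least 1 in size, with replicates between -2.00 and -1.35 and an SD of 0.23 around -1.64. ITGB6, an epithelial integrin subunit known to activate TGF-beta, ran from -2.18 (Slug 2) to -0.27 (E47 1).

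Among secreted and matrix genes, FGFBP1, a carrier that releases fibroblast growth factors from the matrix, fell by 1.97 ± 0.11 on the log2 scale, with replicates from -2.49 to -1.21. NID2, a nidogen of basement membranes, had a mean of -1.77 ± 0.16, and MMP14, a membrane-bound metalloproteinase, had -1.43 ± 0.08. MMP14 was low in every replicate, from -1.82 (E47 2) to -0.82 (Slug 2). ANXA3, a calcium-dependent phospholipid-binding annexin, had a mean of -1.25 ± 0.10, with Snail at -0.62 nearer to the control than Slug at -1.50 and E47 at -1.61 (F test adjusted p = 0.0481).

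DSP, desmoplakin, which anchors keratin filaments in desmosomes, ordered the transfectants without overlap. Its replicates were -2.38 and -2.64 in Snail, -1.63 and -1.71 in Slug, and -0.63 and -0.71 in E47. The pooled fall of 1.62 ± 0.07 (adjusted p = 6.63e-06) therefore averaged unequal falls, and the difference between transfectants passed the F test (adjusted p = 0.0041).

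The largest rise with 12 of 12 arrays on 1 side was that of WNT5A, with 1.46 and 3.76 in Snail, 2.42 and 3.15 in Slug, and 0.90 and 3.53 in E47. E47 1 was the lowest replicate and Snail 2 the highest, and the SD over the 6 replicates was 1.16. The mean was 2.54 ± 0.36 (adjusted p = 0.0017), an SE that does not describe this spread. SCD5 ran from 1.45 (E47 1) to 3.70 (Snail 2) (median 2.29), with a mean of 2.43 ± 0.22. COL1A2 ran from 1.25 (Slug 1) to 3.45 (E47 2) with a mean of 2.20 ± 0.13; its E47 mean of 3.02 was above those of Snail (1.99) and Slug (1.60) (F test adjusted p = 0.0465). TMEFF1, a membrane protein with follistatin-like domains, had a mean of 1.78 ± 0.20, and its E47 2 value of 3.53 stood far above the other 5 replicates, the next of which was 1.88.

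Transcription factors and cofactors formed the next group of rises. TCF4, an E protein of the same family as TCF3, ran from 0.75 (Snail 1) to 3.15 (Slug 1) (median 1.15), with a mean of 1.44 ± 0.24. TWIST1, a helix-loop-helix factor known for its role in epithelial-mesenchymal transition, had 0.26 and 0.34 in Snail against 1.48 and 2.19 in Slug and 1.21 and 2.77 in E47. The 2 Snail replicates lay below the other 4 without overlap, but the F test between transfectants missed the threshold (adjusted p = 0.0629), and the pooled mean was 1.38 ± 0.18. LDB2, a cofactor of LIM domain proteins, showed Snail lowest too, at 0.36 and 0.76, against 2.26 and 2.08 in Slug and 1.13 and 1.91 in E47 (F test adjusted p = 0.022).

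Matrix, membrane and cytoskeletal genes made up the rest. FN1, fibronectin, ran from 0.73 (Snail 1) to 2.14 (Slug 2) (median 1.34), with a mean of 1.38 ± 0.10 (adjusted p = 9.24e-05). ITGBL1, a secreted integrin beta-like protein, had a mean of 1.33 ± 0.09, with Snail lowest (0.76), then Slug (1.37), and E47 highest (1.86; F test adjusted p = 0.036). CAMK2N1, an inhibitor of calmodulin-dependent kinase II, was the most even of the rises, between 0.96 and 1.79 with a mean of 1.35 ± 0.10. MSN, moesin, which links actin to the membrane, had a mean of 1.24 ± 0.16, and the tetraspanin CD63 had 1.35 ± 0.12. PTPRM, an adhesive receptor phosphatase, was uneven: its replicates were 1.16 and 2.76 in Snail, 1.39 and 1.94 in Slug, and 0.12 and 0.44 in E47. ANXA5, a phospholipid-binding annexin, had Slug at 0.53 below Snail at 1.75 and E47 at 1.61 (F test adjusted p = 0.0417), and GABBR2, a subunit of the GABA-B receptor, had Snail at 0.57, Slug at 1.41 and E47 at 1.94 (F test adjusted p = 0.0299).

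**Figure D3:**
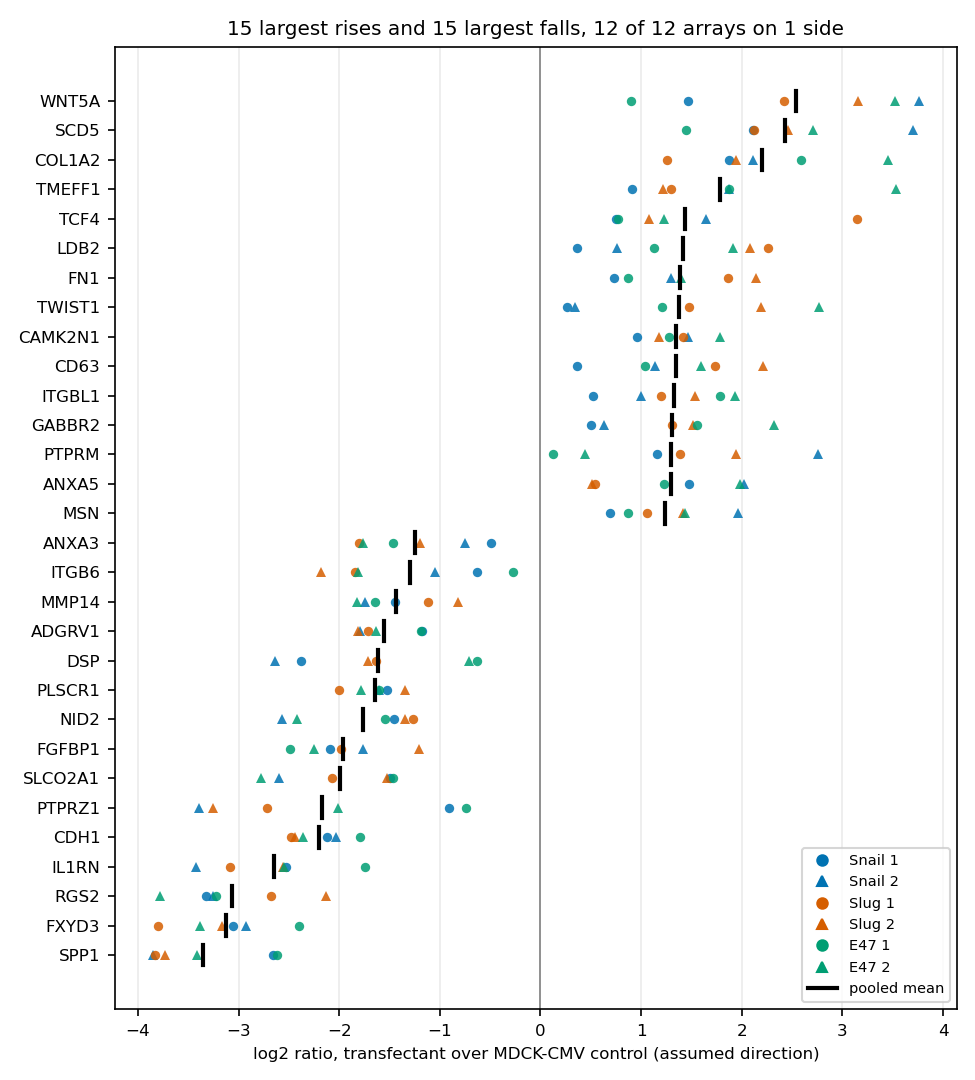
Log2 ratio of transfectant over MDCK-CMV control (horizontal axis) in the 6 replicates for the 15 largest pooled rises and 15 largest pooled falls among called genes with 12 of 12 arrays on 1 side; colour marks the transfectant, circles and triangles samples 1 and 2, and black strokes the pooled mean. SPP1, FXYD3 and RGS2 lie below -2 in every replicate, and the spread between replicates is widest for WNT5A and PTPRZ1.

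With the sign of Snail turned, 28 of these 30 genes, CDH1 among them, kept their direction and 20 also their call; with Slug turned the numbers were 28 and 15, and with E47 turned 29 and 11. DSP and PTPRM changed direction with Snail turned, LDB2 and ITGB6 with Slug turned, and TMEFF1 with E47 turned. These genes were chosen because every array lay on the same side. The pooled mean of such a gene keeps its direction unless the turned transfectant outweighs the others together. The counts of kept directions therefore follow largely from that choice and are no test of the signs. CDH1, which set the signs, is no test either.

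SPARC and CALD1, the actin-binding caldesmon, lay outside this set because of 1 sample. SPARC had 5.24 and 5.48 in Snail, 4.17 and -0.67 in Slug, and 5.003 and 4.38 in E47. CALD1 had 2.28 and 3.20 in Snail, 1.96 and -0.64 in Slug, and 2.57 and 1.94 in E47. In both, Slug 2 stood alone below 0. The pooled means were 3.94 ± 0.49 (adjusted p = 0.00101) and 1.89 ± 0.29 (adjusted p = 0.00244).

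Gene lists set these genes in context; each is described by its counts and its median, beside a median of -0.000683 and shares of 12.9% higher, 12.5% lower and 11.2% past an F test between the transfectants over all genes tested, and the lists were chosen with results of these data known. Of the 9 measured genes of epithelial transport and secretion, 7 fell and 1 rose, with a median of -1.52. Besides SPP1, FXYD3, IL1RN and SLCO2A1, the falls were those of TFF1, a mucosal trefoil peptide (-1.52 ± 0.19), SLC2A3, a glucose transporter (-1.23 ± 0.13), and ATP4A, a proton pump subunit (-0.89 ± 0.10). TFF1 was lowest in Snail and E47, with replicates of -2.73 and -1.95, and -2.58 and -0.997, against -0.31 and -0.53 in Slug. ATP4A was far below 0 in Slug alone, at -2.44 and -2.21, with the other 4 replicates between -0.50 and 0.46. ATP1B1, a subunit of the sodium pump, was the member that rose (0.54 ± 0.13), and its call was lost without Snail 2 (adjusted p = 0.0869) or E47 2 (0.0742). With Slug turned SPP1, FXYD3, IL1RN and TFF1 still passed as lower, SLCO2A1 missed (-0.79, adjusted p = 0.0552), SLC2A3 was at 0.13 and ATP4A passed as higher (0.66, adjusted p = 0.0184).

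Keratins and epithelial differentiation genes fell in 6 of 12 cases and rose in 1, with a median of -0.25. EPCAM, an epithelial adhesion molecule, had -2.996 in Snail 2, -2.78 in Slug 1 and -2.69 in E47 2 against -0.18 in Snail 1, -0.96 in Slug 2 and -0.36 in E47 1. The 3 low replicates are those with arrays that were multiplied by -1 in whole or in part. With the mean sign of a replicate's arrays as a further term of the fit, an alternative added once this split was known, its mean was -1.87 (adjusted p = 0.000193). Its mean of -1.66 ± 0.41 (adjusted p = 0.0201) lost its call without Snail 2 (-1.19, adjusted p = 0.0979), Slug 1 (-1.36, adjusted p = 0.0605) or E47 2 (-1.27, adjusted p = 0.0742). KRT7, a keratin of simple epithelia, had a mean of -0.84 ± 0.08, with Slug at -0.18 nearest to the control (F test adjusted p = 0.0229). MAL, an apical sorting protein (-0.54 ± 0.08), and KRT16 (-0.49 ± 0.09) were below 0 in 6 of 6 replicates. The paired keratins of simple epithelia did not pass: KRT8 had -0.11 (95% interval -0.43 to 0.20) and KRT18 had -0.05 (-0.23 to 0.12). SFN, the 14-3-3 sigma protein, was the member that rose (0.49), with Snail below 0 at -0.37. KRT19 had values in 4 replicates and was not tested; these were -2.77 (Snail 1), -1.64 (Slug 1), -2.75 (Slug 2) and -1.98 (E47 2).

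Of the desmosome genes, 3 of 6 fell and none rose, with a median of -0.29: DSP, the desmosomal cadherin DSG2 (-1.06 ± 0.18) and its relative DSC2 (-0.48 ± 0.09). All 3 were below 0 in 6 of 6 replicates, and DSC2 differed little between transfectants, at -0.47, -0.46 and -0.51 in Snail, Slug and E47. Adherens junction genes went both ways, with 2 of 7 lower and 1 higher and a median of 0.09. CDH1, which set the signs and is no finding, was 1 of the 2 lower. CTNNA1, alpha-catenin, had -0.37 ± 0.08 and lay lowest in Snail (-0.86); without E47 2 its adjusted p was 0.0637 and without Snail its value was -0.12 (adjusted p = 0.344). VCL, vinculin, which couples junctions and focal adhesions to actin, rose by 0.89 ± 0.08 on the log2 scale in 12 of 12 arrays. CTNNB1, beta-catenin, had 0.25 (95% interval 0.05 to 0.44; adjusted p = 0.0697), and JUP, plakoglobin, had 0.09 with Snail at -0.68 and Slug at 0.82 (F test adjusted p = 0.0231). Only 3 tight and gap junction genes were measured: GJA1, connexin 43, rose (0.54 ± 0.10; without E47 0.32, adjusted p = 0.149), and CLDN1, claudin-1, was below 0 in 6 of 6 replicates without passing (-0.28, adjusted p = 0.0812). In bulk RNA of this kind, fewer cells of a type and less RNA per cell cannot be told apart.

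Among transcription factors of the epithelial-mesenchymal transition, 5 of 6 rose and none fell, with a median of 0.74: TCF4, TWIST1, SNAI1, TCF3 and ZEB1. SNAI1 and TCF3 are the genes of the introduced Snail and E47, and whether their rises are a response was not tested. The list names 15 genes, of which 6 were on the array. ZEB1, a zinc finger and homeobox repressor of CDH1, had replicates of 0.37 and 0.56 in Snail, 1.26 and 0.52 in Slug, and 0.42 and 0.68 in E47, and its mean was 0.64 ± 0.10 (adjusted p = 0.00329). All 12 arrays lay above 0, and Slug 1 stood above the other 5 replicates. KLF8 did not pass (-0.09, 95% interval -0.27 to 0.08). With Snail turned 2 of the 6 were higher, with Slug turned none passed, and with E47 turned 1 was higher.

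Of the mesenchymal markers, 4 of 10 rose and 1 fell, with a median of 0.23. The rises were SPARC, CALD1, FN1 and MCAM, a cell adhesion molecule whose replicates lay close together between 0.60 and 1.11 with a mean of 0.94 ± 0.08. THY1, a surface glycoprotein of fibroblasts, fell (-0.34 ± 0.07), with Snail at -0.81 and -0.83 and the other 4 replicates between -0.34 and 0.04, and missed without E47 2 (adjusted p = 0.0673); without Snail it was at -0.11 (adjusted p = 0.416). CDH2, N-cadherin, did not pass at 0.18 (95% interval -0.03 to 0.40), nor did ACTA2, smooth muscle actin, at 0.10 (-0.09 to 0.28), or CDH11 at 0.03 (-0.13 to 0.20). VIM, vimentin, had values in 3 replicates only, between -0.47 and 0.13, and was not tested.

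Of the collagens and matrix genes, 6 of 22 rose and 2 fell, with a median of 0.10. LUM, the proteoglycan lumican, rose by 2.11 ± 0.14 on the log2 scale but by very different amounts, with 3.73 and 4.12 in Slug, 1.57 and 2.74 in Snail, and 0.06 and 0.44 in E47. SERPINH1, a collagen chaperone, was above 0 in 12 of 12 arrays, from 0.59 to 1.15 over the replicates (mean 0.89 ± 0.08), but this averaged a clone at 0.11 and a clone at 1.68. COL15A1 had a mean of 1.16 ± 0.29 that rested on Slug 1, at 3.56 against values from 0.0029 to 1.002 in the others; without Slug 1 its mean was 0.70. Its call was lost without Snail 1 (adjusted p = 0.0617), Snail 2 (0.121), E47 1 (0.0518) or E47 2 (0.0686). Of the matrix proteases and inhibitors 3 of 19 passed each way, near the shares of 12.9% and 12.5% over all genes, with a median of 0.05: CTSB (0.47 ± 0.09), CTSK (0.59 ± 0.07) and MMP19 (0.47 ± 0.08) rose, and MMP14, TIMP3 (-0.70 ± 0.09) and ADAM10 (-0.38 ± 0.08) fell; ADAM10 missed without E47 2 (adjusted p = 0.0544) and was at -0.10 without Slug (adjusted p = 0.626). The gelatinases did not pass, with MMP2 at 0.05 (95% interval -0.11 to 0.20) and MMP9 at -0.05 (-0.21 to 0.12). TIMP1, an inhibitor of metalloproteinases, was not tested for want of E47 1, and its other 5 replicates were 1.39, 1.15, 2.56, 3.36 and 3.39.

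Integrin and focal adhesion genes rose in 6 of 19 cases and fell in 2, with a median of 0.10. TLN1, talin, which activates integrins, rose by 0.83 ± 0.12 on the log2 scale, most in Slug (2.18 and 1.16; F test adjusted p = 0.037). ACTN1, alpha-actinin, rose by 0.88 ± 0.12 and SDC4, a heparan sulfate proteoglycan of focal adhesions, by 0.71 ± 0.10. ITGA6, a laminin receptor subunit, fell (-0.42 ± 0.09) while its replicates went from -1.59 and -1.49 in Snail through -0.55 and -0.08 in Slug to 0.45 and 0.74 in E47. ITGA5, the fibronectin receptor subunit, lacked Snail 1 and was not tested; it had 3.19 in Snail 2, 3.55 and 3.30 in Slug, and 0.53 and 2.69 in E47. Of the cytoskeleton and small GTPase genes, 7 of 16 rose and 1, RHOB (-0.40 ± 0.07), fell, with a median of 0.18; the rises included MSN, RHOC (0.44 ± 0.09), PFN1 (0.45 ± 0.08) and STMN1, a microtubule destabiliser (0.65 ± 0.12, with E47 at 1.39).

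TGF-beta and BMP genes rose in 14 of 27 cases and fell in 1, with a median of 0.26. Of the receptors, ACVR1 rose by 1.16 ± 0.13 on the log2 scale, with replicates from 0.33 (Snail 1) to 1.66 (E47 2), and TGFBR2 rose by 0.34 ± 0.07 with replicates that lay within 0.28 to 0.38. Among ligands, INHBB (0.60 ± 0.07), INHBA (0.59 ± 0.09), BMP2 (0.50 ± 0.08) and TGFB2 (0.34 ± 0.09) were above 0 in 6 of 6 replicates. TGFB2 lost its call with any replicate but Slug 2 left out, with adjusted p between 0.071 and 0.0951. CCN2, a matricellular protein known as a target of the pathway, rose by 0.94 ± 0.07, between 0.44 and 1.23. SMAD5 was the member that fell (-0.37 ± 0.08), with its call lost without E47 1 (adjusted p = 0.0555), and SMAD2 and SMAD3, which carry TGF-beta signals, did not pass, at 0.05 and 0.13. With Snail turned 8 members were higher and none lower, with Slug turned 1 each way, and with E47 turned 2 were higher.

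Of the Wnt genes, 7 of 23 rose and none fell, with a median of 0.16. Beside WNT5A, the receptors FZD7 (0.65 ± 0.07, between 0.43 and 0.78) and FZD2 (0.41 ± 0.07) were above 0 in 6 of 6 replicates. CCND1, cyclin D1, did not pass (0.21, adjusted p = 0.0619): it had -0.91 and -0.69 in Snail and 0.66 to 0.76 in the other 4 replicates. Growth factor receptor and MAPK genes rose in 9 of 30 cases and fell in none, with a median of 0.09. FGFR1 (0.75 ± 0.08) and SPRY2, a feedback inhibitor of receptor tyrosine kinases (0.96 ± 0.07), were the 2 of these above 0 in 6 of 6 replicates; FGFR1 was highest in Slug (1.48) and SPRY2 in E47 (1.70).

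G protein signalling genes rose in 6 of 9 cases and fell in 1, RGS2, with a median of 0.47. GNAI1, an inhibitory alpha subunit, rose by 1.01 ± 0.09 on the log2 scale, with 2.02 and 2.41 in E47, 0.54 and 0.91 in Snail, and 0.21 and -0.01 in Slug. GNAS (0.47 ± 0.07), GNAQ (0.47 ± 0.10), GNG12 (0.58 ± 0.08) and GNG11 (1.26 ± 0.27) were above 0 in 6 of 6 replicates. For GNAS this holds for the mean of its clones, the first of which had -0.26 in Snail 2. GNG11 was uneven, with 3.14 in E47 2 and 0.51 to 1.56 in the others; its mean was 0.82 without E47 2, and its call was lost without Snail 1 (adjusted p = 0.0615) or Snail 2 (0.0639). That of GNAQ was lost without Snail 2 (0.0711) or E47 2 (0.0588).

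Among helix-loop-helix inhibitors and their targets, 4 of 8 rose and 1 fell, and 5 differed between transfectants, with a median of 0.26. ID proteins bind E proteins such as E47 and keep them from DNA. ID3 rose by 0.88 ± 0.10 on the log2 scale, with 0.20 and 0.25 in Snail, 0.86 and 0.82 in Slug, and 1.15 and 1.97 in E47. ID4 (0.62 ± 0.09) had E47 at 1.49 against 0.05 in Snail and 0.32 in Slug, and without E47 it was at 0.19 (adjusted p = 0.245). ID2 did not pass when pooled (0.19, adjusted p = 0.198), with E47 at 1.06, Snail at -0.07 and Slug at -0.41 (F test adjusted p = 0.0172). ID1 passed (0.33, adjusted p = 0.0385) but lost its call with any replicate but E47 1 left out, being lowest without E47 2 (0.22), and with all arrays scaled to 1 spread (adjusted p = 0.0621). MYC was the member that fell (-0.50 ± 0.10), with -1.24 and -2.02 in Snail and between -0.18 and 0.22 in the other 4 replicates; without Snail it was at 0.07 (adjusted p = 0.575).

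Cell cycle and replication genes rose in 6 of 40 cases and fell in 10, with a median of 0.06. The falls in 12 of 12 arrays were MAD2L1, a spindle checkpoint protein (-0.74 ± 0.09), and CCNH, cyclin H (-0.63 ± 0.09). BUB1, a checkpoint kinase, fell most in Slug (-1.80 and -1.40; F test adjusted p = 0.016). CDKN1A, the p21 inhibitor of cyclin-dependent kinases, had a mean of 1.07 ± 0.22, with 2.40 and 2.29 in Slug, -0.34 and 1.74 in E47, and 0.26 and 0.04 in Snail, and lost its call without Snail 1 (adjusted p = 0.0528); without Slug it was at 0.43 (adjusted p = 0.367). MKI67, a proliferation marker, did not pass (-0.02, 95% interval -0.19 to 0.16), nor did PCNA (0.24, adjusted p = 0.0657).

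Of the glycolysis genes 5 of 10 rose and none fell (median 0.21), including PKM (0.86 ± 0.08, Slug 1.39, E47 0.95, Snail 0.24), ENO1 (0.47 ± 0.08) and PFKM (0.44 ± 0.08). VEGFA, an angiogenic factor, rose by 0.97 ± 0.07 on the log2 scale, but with Snail at -0.25 and -0.30 against 1.91 and 2.07 in Slug and 1.06 and 1.34 in E47. EDN1, endothelin-1, fell in 12 of 12 arrays (-0.84 ± 0.14), in a list where 3 of 15 rose and 1 fell (median 0.05). The metallothioneins MT1X (0.94 ± 0.11) and MT2A (0.91 ± 0.08) rose, both most in E47, and 3 of 15 stress genes rose and 1 fell in all (median 0.09). In lipid metabolism SCD5 rose while its relative SCD fell (-0.82 ± 0.14), both on 12 of 12 arrays; 1 of 6 rose and 2 fell (median -0.07).

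Of the remaining lists, interferon and antigen presentation genes fell in 5 of 21 cases and rose in 2 (median -0.03), beside 12.5% lower and 12.9% higher over all genes. CD74, the invariant chain (-0.72 ± 0.09), ISG15 (-0.78 ± 0.11) and IFI6 (-0.54 ± 0.11) were below 0 on 12 of 12 arrays, though IFI6 missed without Snail 2 (adjusted p = 0.0522) or E47 2 (0.052). Apoptosis genes rose in 3 and fell in 5 of 26 cases (median 0.04), with BCL2L1, an anti-apoptotic protein, at 0.77 ± 0.09 and highest in Slug (1.50). Ribosome and translation genes rose in 2 and fell in 4 of 14 cases (median -0.08), and 8 of the 14 differed between transfectants.

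Markers of other cell types were read as well. Of 10 leukocyte markers 1 rose and 3 fell (median -0.08): SRGN, serglycin, fell by 1.25 ± 0.19 on the log2 scale, PTPRC (CD45) had -0.33 and lost its call without Snail 1, Snail 2, Slug 1 or E47 2 (adjusted p between 0.0533 and 0.0931), and CD4, CD53, LCK and ZAP70 did not pass, at -0.08, -0.04, 0.11 and -0.08. Of 8 endothelial markers 1, THBD (0.60 ± 0.13), rose and none fell (median 0.07); THBD missed without Snail 2 (adjusted p = 0.0734) or E47 2 (0.0521), and PECAM1 (0.18) and VWF (0.16) did not pass. The members of these 2 lists ran from -1.25 to 0.55 and from -0.18 to 0.60. A ratio carries no level, so whether RNA of these markers was present at all, and its part in other results, was not tested.

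**Figure D4:**
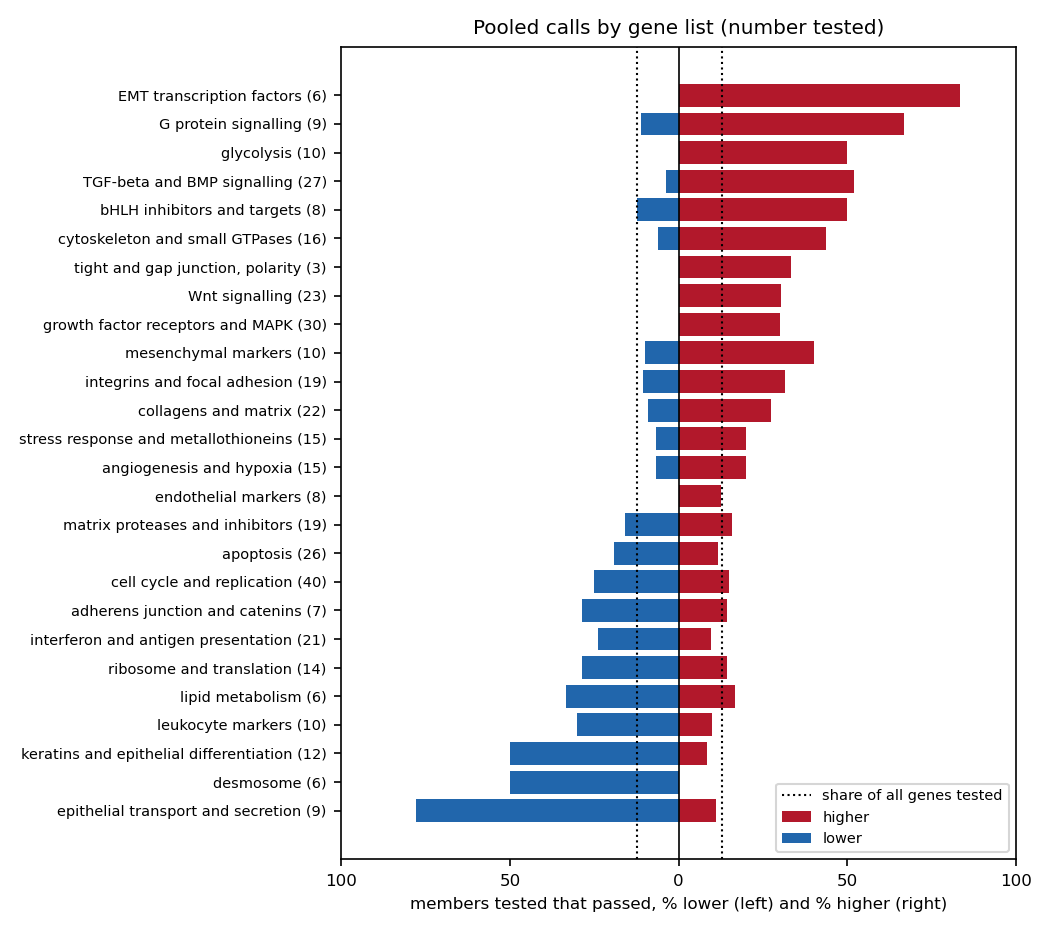
Share of the tested members of each of the 26 gene lists (number tested in brackets) that passed a limma adjusted p of 0.05, in percent: lower to the left in blue, higher to the right in red; dotted lines mark the shares over all genes tested, 12.5% lower and 12.9% higher. The list of transcription factors stands at the top, with 5 of 6 higher, among them SNAI1 and TCF3, the genes of Snail and E47. The list of epithelial transport and secretion stands at the bottom, with 7 of 9 lower.

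Whether the pooled mean hides unlike responses was asked with a moderated F test between the 3 transfectant means, which 396 of 3537 genes passed (11.2%). Of these, 234 were also among the 899 pooled calls, and the other 162 were not; each of the 162 had transfectant means on both sides of 0. The reverse also held often: 665 pooled calls did not pass the F test, which does not show that the transfectants acted alike in them.

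Among genes past both tests, the widest range of means was in LUM (3.68), given above, and the next in GAS1 (2.73), a growth arrest protein bound to the membrane by a lipid anchor. It had 3.20 and 2.70 in E47, against 0.19 and 0.25 in Snail and 0.53 and 0.29 in Slug. The E47 replicates stood apart, and without E47 the mean of 1.19 ± 0.09 fell to 0.31 (adjusted p = 0.067). SIRPA, a receptor for CD47, and BHLHE40, a helix-loop-helix repressor, were near 0 in Snail (0.09 and 0.01) and high in Slug (2.47 and 2.36) and E47 (1.98 and 1.36). PATL1, a factor in mRNA decapping, had Slug at 2.06, E47 at 0.64 and Snail at -0.44, and without Slug its mean of 0.75 was 0.10 (adjusted p = 0.663). ATP4A, given above, completed this set, and like LUM it had Slug farthest from the control; without Slug the mean of LUM was 1.20 and that of ATP4A -0.17 (adjusted p = 0.439).

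Leaving out a whole transfectant ended further calls. Without Snail ENO1 was at 0.30 (adjusted p = 0.0652), KRT16 at -0.32 (0.0519) and ITGA6 at 0.14 (0.383). Without Slug SFN was at 0.22 (0.19), BMP2 at 0.29 (0.108), INHBA at 0.32 (0.0883), FZD2 at 0.28 (0.101), PFN1 at 0.30 (0.0892), BUB1 at -0.30 (0.11), SMAD5 at -0.25 (0.163), TGFB2 at 0.24 (0.12), PTPRC at -0.16 (0.305), SRGN at -0.81 (0.0558), THBD at 0.48 (0.0517) and EPCAM at -1.56 (0.0617). Without E47 STMN1 was at 0.28 (0.127), ATP1B1 at 0.28 (0.255), GNAQ at 0.36 (0.116), ID1 at 0.07 (0.704) and COL15A1 at 1.28 (0.0518), and SFN and TGFB2 missed too (0.0634 and 0.141). The values in brackets are limma adjusted p, so the pooled calls of these genes did not hold over every pair of transfectants.

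The genes that differed between transfectants without a pooled call had Snail lowest in each of the 6 with the widest range. HDGF, a secreted growth factor, had -1.61 and -1.29 in Snail, 0.98 and 0.85 in Slug, and 0.64 and 0.84 in E47, and its pooled mean was 0.07 (95% interval -0.11 to 0.24). SRSF4, a splicing factor, had -1.08 and -1.50 in Snail against 1.42 and 1.00 in Slug and 0.89 and 0.62 in E47. ARPC1B, a subunit of the Arp2/3 actin nucleator, EEF1D, an elongation factor subunit, and MACIR likewise had Snail below 0 (-1.06, -0.81 and -1.12), Slug highest (0.93, 1.12 and 1.14) and E47 between (0.31, 0.43 and 0.50). EPS8, an actin-capping protein, differed in having E47 highest (0.94), Slug near 0 (0.10) and Snail at -1.12. As their shape rests on the sign of Snail, it turns with it: with Snail turned, the pooled means were 1.04 for HDGF, 1.08 for SRSF4, 0.77 for ARPC1B and 0.72 for EPS8.

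**Figure D5:**
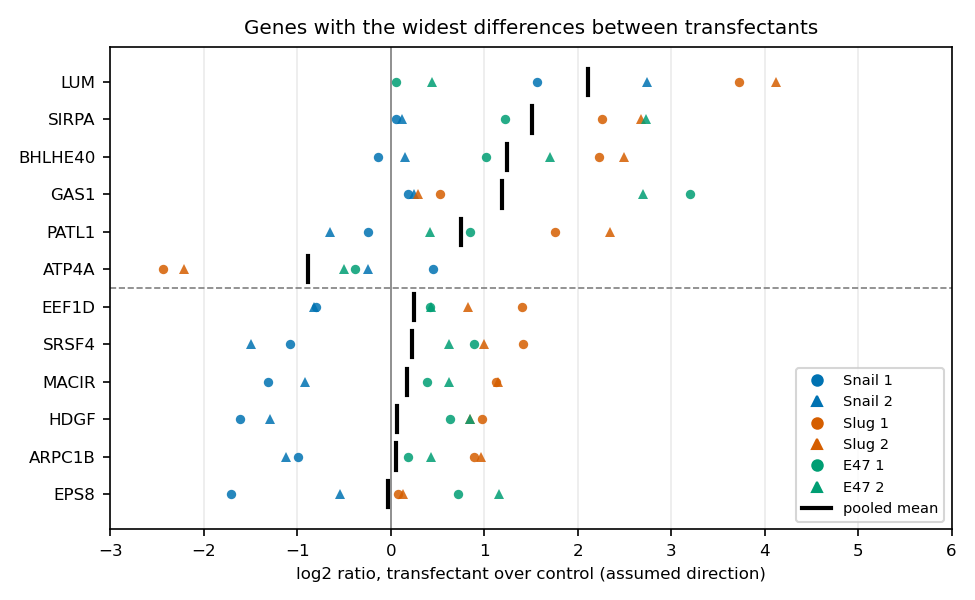
Log2 ratio of transfectant over control (horizontal axis) in the 6 replicates; above the dashed line the 6 genes past both tests with the widest range of transfectant means, below it the 6 genes past the F test alone. Colour marks the transfectant, circles and triangles samples 1 and 2, and black strokes the pooled mean; below the line both Snail replicates lie below 0 in every gene.

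The count of pooled calls depended on what was taken as error. With the 6 replicates placed around 1 mean, so that differences between transfectants entered the error, 299 genes passed (8.45%), 132 higher and 167 lower, and all 299 were among the 899. Of the 185 genes with 12 of 12 arrays on 1 side, 159 passed this stricter fit. With each transfectant mean taken as 1 sample (n = 3), 19 genes passed, counting CDH1, which set the signs and is no test. Higher were WNT5A, SCD5, CAMK2N1 and MSN. Lower beside CDH1 were SPP1, FXYD3, RGS2, IL1RN, SLCO2A1, FGFBP1, NID2, PLSCR1, ADGRV1, EPCAM, MST1R, FGF13, ATL1 and ACP6. MST1R, a receptor tyrosine kinase of epithelia, was the most even of those not yet described, with replicates from -1.13 to -0.81 around -0.94 ± 0.08, and 2 clones.

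The count also depended on the signs. With Snail turned, 690 genes passed, 472 higher and 218 lower, so that 68.4% were higher in place of 50.8%. With Slug turned 156 passed (44.9% higher) and with E47 turned 118 (28.8% higher). Of the 899 calls, 381, 88 and 93 remained in the same direction under these 3 turnings. Among 398 genes with several clones, the clones lay on 1 side of 0 in 60.8%. The share was 91.4% among the 116 called ones and 91.2% among the 34 called ones with 12 of 12 arrays on 1 side. A called value is the mean of these same clones, so calling favours clones on 1 side, and the higher shares are no separate support. The median distance between the lowest and the highest clone was 0.29 on the log2 scale in the called genes. The clones carry human gene names while the RNA was from dog, and how well each clone binds dog RNA was not tested.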

How the data were processed

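RNA of MDCK transfectants was compared with MDCK-CMV RNA on 2-colour cDNA arrays with exchanged dyes, per the labels. The deposited values are ratios of the 2 channels, and the log2 base was read from the values: the antilogs of the negative ones checked fell on whole thousandths, within rounding, in 100% of cases. The sources used here do not give the scanner, background correction, normalisation or numerator, and spot brightness is unknown. Of 13056 probes, 8047 had 1 gene symbol in the platform table, 276 several and 4733 none. Signs were set per array, spots averaged by clone, clones by gene, and the pair of arrays by replicate, with both arrays required. limma 3.58.1 (R 4.3.3) fitted 1 mean per transfectant, and the equally weighted mean was tested against 0 (two-sided, 3 residual degrees of freedom, Benjamini-Hochberg over 3537 genes, threshold 0.05); the values after ± are moderated standard errors. A moderated F test compared the transfectants.

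Named were the 15 largest rises and falls with 12 of 12 arrays on 1 side, the 6 most even genes, the 6 widest-ranging past both tests and past the F test alone, CDH1, SNAI1 and TCF3, and called list members; other members appear as examples. Members, lists and signs were chosen with earlier results of these data known. On simulated data of 3537 genes, the pooled fit recovered 86.6% of changes of 0.5 on the log2 scale. It recovered 100% of changes of 1 or 2 and called 10 unchanged genes. The simulated noise was independent between replicates, with a spread drawn from the fit, and each change was the same in all 6 replicates. No shared control, choice of signs or disagreement of dye pairs was simulated, so these shares do not cover those limits. Alternatives covered signs, scaling, missing values, clones, dye, error model and left-out samples. Motifs in promoters were not analysed here.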

Additional observations from a re-analysis of the deposited data

Results flagged for a closer look

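In 10 of the 146 genes looked at, 1 replicate stood apart from the other 5 by a gap to its neighbour that took up most of the whole range (Dixon's test); chance gives this in about 1 of 20 groups. Slug 2 was low in SPARC (-0.67) and CALD1 (-0.64). Slug 1 was high in COL15A1 (3.56) and ZEB1 (1.26) and low in MCAM (0.60) and MAD2L1 (-1.22). E47 2 was high in TMEFF1 (3.53), GNG12 (0.97) and MMP19 (0.86), and Snail 2 was low in MMP9 (-0.32). In all but 1 of these (MMP9) the replicate that stood apart was from Slug or E47, which make up most of the replicates. The count of 10 of 146 lies near the 1 of 20 that chance gives, so no pattern is read from it. What set these replicates apart was not tested.

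The F test between the transfectants was passed by 48 of the 146 genes, beside 396 of 3537 (11.2%) over all genes tested. Its adjusted p is given in brackets for each. The 146 include the 6 widest-ranging genes past both tests and the 6 past the F test alone, which raises this count. Those 6 past the F test alone all fall in the first group below, so its size depends on that choice too. The largest group, 23 genes, had Snail lowest and farther from the middle mean than the highest was: HDGF (0.00252), VEGFA (0.00335), ARPC1B (0.00367), MACIR (0.00367), SRSF4 (0.00367), CCND1 (0.0041), ITGA6 (0.0041), BHLHE40 (0.00532), EEF1D (0.00632), SFN (0.00681), MYC (0.00852), TCF3 (0.0188), PKM (0.0196), SIRPA (0.021), EPS8 (0.0214), LDB2 (0.022), JUP (0.0231), GABBR2 (0.0299), INHBB (0.032), ITGBL1 (0.036), THY1 (0.0438), TIMP3 (0.0438) and CTNNA1 (0.0467). Grouped by the same rule, E47 stood highest in 11: GAS1 (0.00252), DSP (0.0041), GNAI1 (0.0041), SPRY2 (0.00913), ID4 (0.016), ID2 (0.0172), MT1X (0.0172), ID3 (0.0333), MT2A (0.0375), COL1A2 (0.0465) and STMN1 (0.0499). Slug stood highest in 6, PATL1 (0.00532), FGFR1 (0.0145), BCL2L1 (0.0223), KRT7 (0.0229), TLN1 (0.037) and RGS2 (0.045), and lowest in 5, ATP4A (0.0041), BUB1 (0.016), ADAM10 (0.0294), ANXA5 (0.0417) and SLC2A3 (0.0499). Snail stood highest in CTSK (0.0301) and ANXA3 (0.0481), and E47 lowest in LUM (0.0041). Each gene is listed only under the transfectant whose mean lay farthest from the middle one. Another transfectant can stand highest or lowest in it too. These arrangements hold under the assumed signs.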

How the results depend on the processing

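The counts moved with the sign of a transfectant, the dye, the error model and the samples left out. With Snail turned, 218 genes were lower and 623 differed between transfectants. With Slug turned 156 genes passed, 70 higher and 86 lower, 27 on 1 side in 6 of 6 replicates, and 996 differed between transfectants. With E47 turned these were 118, 34, 84, 25 and 1052. Arrays titled Cy3 alone gave 366 pooled calls, 173 higher and 193 lower, 235 on 1 side in 6 of 6, and 15 genes that differed between transfectants; arrays titled Cy5 alone gave 260 such differing genes. Placed around 1 mean, 299 genes passed, 132 higher and 167 lower, 282 on 1 side in 6 of 6; with 3 transfectant means as samples 19 passed, 4 higher and 15 lower, all 19 on 1 side. Neither of these 2 fits gives an F test. With 1 of the 6 replicates left out the pooled calls ran from 472 to 862, the higher from 233 to 436, the lower from 239 to 426, those on 1 side in every replicate left from 325 to 484, and the genes that differed between transfectants from 76 to 370. E47 2 gave the lowest pooled count, and 293 genes were higher without Snail 2. Genes that differed were 76 without Snail 1, 91 without Snail 2, 236 without E47 1 and 199 without E47 2. Without Snail 894 genes lay on 1 side and 15 differed between the other two; without Slug 468 passed, 206 higher and 262 lower, and 201 differed; without E47 599 passed, 270 of them higher. Each left-out fit also tested the genes whose values were lacking only in what was left out.

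Of the named genes past the threshold with either sign, those whose pooled log2 ratio changed direction with Snail turned were SNAI1 -0.29, CTSK -0.16, ENO1 -0.0794, PTPRM -0.00496, TFF1 0.0437, DSP 0.0564, KRT16 0.06003, TIMP3 0.14, THY1 0.20, CTNNA1 0.21, MYC 0.59, ITGA6 0.61 and EPS8 0.72. With Slug turned they were PATL1 -0.62, MACIR -0.58, SRSF4 -0.58, ARPC1B -0.56, HDGF -0.54, LUM -0.51, EEF1D -0.50, CDKN1A -0.50, JUP -0.46, VEGFA -0.36, BHLHE40 -0.33, COL15A1 -0.30, TLN1 -0.28, FGFR1 -0.23, BCL2L1 -0.23, SFN -0.20, INHBA -0.16, TCF3 -0.15, SIRPA -0.14, BMP2 -0.11, PKM -0.0651, PFN1 -0.0503, GNAS -0.0438, FZD2 -0.0425, LDB2 -0.0301, TGFB2 -0.0233, SMAD5 0.0365, ITGB6 0.044, PTPRC 0.11, SLC2A3 0.13, SRGN 0.16, ADAM10 0.25, BUB1 0.33 and ATP4A 0.66. With E47 turned they were GAS1 -0.77, ID2 -0.51, GNAI1 -0.46, HDGF -0.43, ID4 -0.37, MT1X -0.29, STMN1 -0.28, ID1 -0.24, SPRY2 -0.18, ATP1B1 -0.17, ID3 -0.16, GJA1 -0.12, MT2A -0.0644, SFN -0.0451, TMEFF1 -0.0166, INHBB -0.00882, COX11 0.00317 and KRT7 0.0538. By the same rule, without Snail MYC was at 0.069, ITGA6 at 0.14 and EPS8 at 0.52; without Slug, ARPC1B was at -0.37 and HDGF at -0.36. These follow from the sign or from the transfectant left out; other causes were not tested.

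Centring, scaling, spots with values on all 12 arrays, replicates resting on 1 array, the median of the clones and E47 2 from its array titled Cy3 alone gave 802 to 906 pooled calls and reversed none of the 146 genes; in 0 of 26 lists did the direction of the majority flip with centring or scaling. Whether the numbers 1 and 2 pair the samples across transfectants is not in the labels. The differences between samples 1 and 2 correlated with r = 0.0196 (Snail with Slug), 0.227 (Snail with E47) and -0.0661 (Slug with E47). These values do not settle it. With the replicate block 899 genes passed, 455 higher and 444 lower, 861 of them shared with the fit without it, and 393 differed between transfectants. An alternative added after seeing the data, the array sign as a covariate, gave 951 pooled calls, 866 of them shared, and 414 genes that differed. Genes on all 12 arrays were chosen at the level of spots, since the gene values already required them. Array number, 6 replicates with 3 residual degrees of freedom, limits the precision; spot brightness is unknown, so a ratio near 0 does not show that a gene was measured above background.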
